A study of Mus musculus with 24 samples.

Results

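The membrane mucins described here were the 7 genes Muc1, Muc3, Muc4, Muc13, Muc15, Muc16 and Muc20, chosen by name from the 53465 genes of the count table and read in every tumor. The tumors were the BURP lines, urothelial carcinomas induced in C57BL/6NTac mice with N-butyl-N-(4-hydroxybutyl)nitrosamine (BBN), a carcinogen of the bladder lining. BBN was given at 0.1% in the drinking water from 8 weeks of age for up to 36 weeks, and total RNA was sequenced from 24 tumors, 3 of each of 8 lines. Of the 6 basal/squamous (Ba/Sq) lines, those of male origin were BURP-12BaSq, BURP-17BaSq and BURP-18BaSq, and those of female origin were BURP-21BaSq, BURP-24BaSq and BURP-25BaSq. Males also gave the stroma-rich line BURP-16SR and the neuroendocrine-like line BURP-19NE. All donors had received BBN, so no group was untreated. Each line descended from 1 donor tumor and was passaged under the skin of sex-matched hosts of the same strain, not in the bladder. Whether any of the tumors came from mice given cisplatin is not stated in the sources used here. The 3 tumors of a line share a donor, and p-values measure the spread between these tumors.

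Membrane mucins are large glycoproteins anchored in the apical membrane of epithelial cells, with long outer parts that are densely covered with O-linked sugars. They form a barrier against infection and abrasion, their outer parts can be shed, and some of them pass signals into the cell. In the bladder the mucin coat lies on the urothelium, the epithelium that faces the urine.

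Muc4 spanned the widest range of the family, high in most Ba/Sq tumors and nearly absent from BURP-16SR and BURP-19NE, and Muc20, the gene that overlaps it, followed it. Muc15 was found in BURP-19NE and in most Ba/Sq tumors and was nearly absent from BURP-16SR. Muc1 and Muc16 were low, and Muc3 and Muc13 were at or close to 0 throughout. Levels are CPM, counts scaled to the size of the library with TMM factors over the 24 tumors, which set aside genes of extreme level. Levels of different mucins are compared only as CPM per kilobase of exon. In bulk tumors, fewer cells of a type and less RNA per cell cannot be told apart.

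Total counts ran from 9295708 to 25370320 per tumor. A level of 3 counts, used as the floor, came to between 0.106 and 0.412 CPM in 23 tumors and to 1.34 CPM in tumor C102-M30 of BURP-25BaSq, where 2 ribosomal genes took 62.8% of the counts. Tumor C102-M1 of BURP-25BaSq correlated at r = 0.973 with P4.2 of BURP-21BaSq and at no more than 0.894 with its own line, and P4 of BURP-18BaSq correlated at 0.928 with C152-M1 of BURP-17BaSq and at no more than 0.912 with its own line. Both were kept as labelled. The basal and squamous markers Krt5, Krt14, Trp63, Dsg3 and Krt6a summed to between 7921 and 21007 CPM in the Ba/Sq tumors, to no more than 1.27 CPM in BURP-16SR and to no more than 1.14 CPM in BURP-19NE. The urothelial umbrella cell markers Upk1a, Upk1b, Upk2, Upk3a and Krt20 summed to between 0.735 and 205 CPM in Ba/Sq, between 7.66 and 17.3 CPM in BURP-16SR and between 0.409 and 0.926 CPM in BURP-19NE, with Upk1b, Upk2 and Upk3a at 0 in all BURP-19NE tumors.

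The sequences before the starts of Muc4, Muc20 and Muc1 are shown because Muc4 and Muc20 converge on chromosome 16 from separate starts with correlated levels, and that of Muc1 on chromosome 3 is given beside them. Each run holds the 250 bases before the start in RefSeq's table for GRCm38.p6, 5′ to 3′ on the strand of the gene, and capitals mark matches to the motifs named after them.
Muc4, chr16:32735636-32735885, plus strand: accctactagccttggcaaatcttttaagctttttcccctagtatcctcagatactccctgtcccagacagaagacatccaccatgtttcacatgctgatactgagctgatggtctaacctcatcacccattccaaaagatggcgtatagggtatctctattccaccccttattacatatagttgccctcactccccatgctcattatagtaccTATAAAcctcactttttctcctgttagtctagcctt
Muc20, chr16:32797436-32797685, minus strand: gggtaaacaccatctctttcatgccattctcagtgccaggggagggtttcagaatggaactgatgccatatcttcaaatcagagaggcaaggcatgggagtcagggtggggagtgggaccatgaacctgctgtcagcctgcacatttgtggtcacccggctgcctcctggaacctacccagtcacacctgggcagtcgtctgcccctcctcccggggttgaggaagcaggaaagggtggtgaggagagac
Muc1, chr3:89228806-89229055, plus strand: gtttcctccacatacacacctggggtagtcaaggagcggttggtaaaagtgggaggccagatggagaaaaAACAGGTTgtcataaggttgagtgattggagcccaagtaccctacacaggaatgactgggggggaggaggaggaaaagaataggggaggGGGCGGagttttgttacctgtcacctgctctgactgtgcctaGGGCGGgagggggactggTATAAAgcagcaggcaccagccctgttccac
The motifs searched on both strands were the TATA box TATAAA, the GC box GGGCGG, the AP-1 motif TGANTCA, the ETS motif GGAAGT and the grainyhead motif AACCNGTT. The Muc4 window held a TATA box 36 bases before the start and no other match, and the Muc20 window held no match. The Muc1 window held a TATA box 31 bases before the start, GC boxes at 91 and 49 bases, and a grainyhead match on the other strand at 180 bases. Of 32841 such windows, 12.4% held the TATA box, 32.7% the GC box, 6.75% the AP-1 motif, 19.7% the ETS motif and 1.79% the grainyhead motif. G and C made up 43.6% of the Muc4 window, 57.2% of the Muc20 window and 54.8% of the Muc1 window, against a mean of 53.2% over all windows. These matches describe letters and do not show binding. The table had entries for 6 of the 7 members. Muc15 was the exception.

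Per kilobase of exon, Muc4 had the highest level of the 7 genes in 12 tumors, Muc15 in 7 and Muc1 in 5. The sum over the 7 genes ran from 0.202 CPM per kb in P5 of BURP-16SR to 143 CPM per kb in C165-M30 of BURP-17BaSq. Muc4 made up 75.2% to 91.7% of this sum in BURP-12BaSq, 57.7% to 90.7% in BURP-17BaSq and 51.6% to 64.2% in BURP-24BaSq. In BURP-21BaSq, Muc4 led in P4 with 72.0% and in P5 with 37.1%, and Muc15 led in P4.2 with 48.5%. In BURP-25BaSq, Muc15 led in C102-M3 and C102-M30 with 61.7% and 67.1%, and Muc4 led in C102-M1 with 45.2%. The Ba/Sq lines thus differed in their leading mucin, and tumors of BURP-21BaSq and BURP-25BaSq differed within the line as labelled. In P5 of BURP-21BaSq the lead was small, with Muc1 at 34.1%. C102-M1, the tumor of BURP-25BaSq led by Muc4, is the one that correlated more with P4.2 of BURP-21BaSq than with its own line.

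In BURP-18BaSq the sums were low, at 0.514, 1.87 and 0.884 CPM per kb, with Muc1 leading in 2 tumors and Muc15 in 1. The sums in BURP-16SR were 0.734, 1.04 and 0.202 CPM per kb, and Muc1 led in all 3 tumors with 64.0%, 86.0% and 44.3%. In BURP-19NE, Muc15 made up 91.6% to 93.3%, with the limit from Ano3 given above. Shares in tumors with low sums rest on few counts and carry a large counting error.

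**Figure D1:**
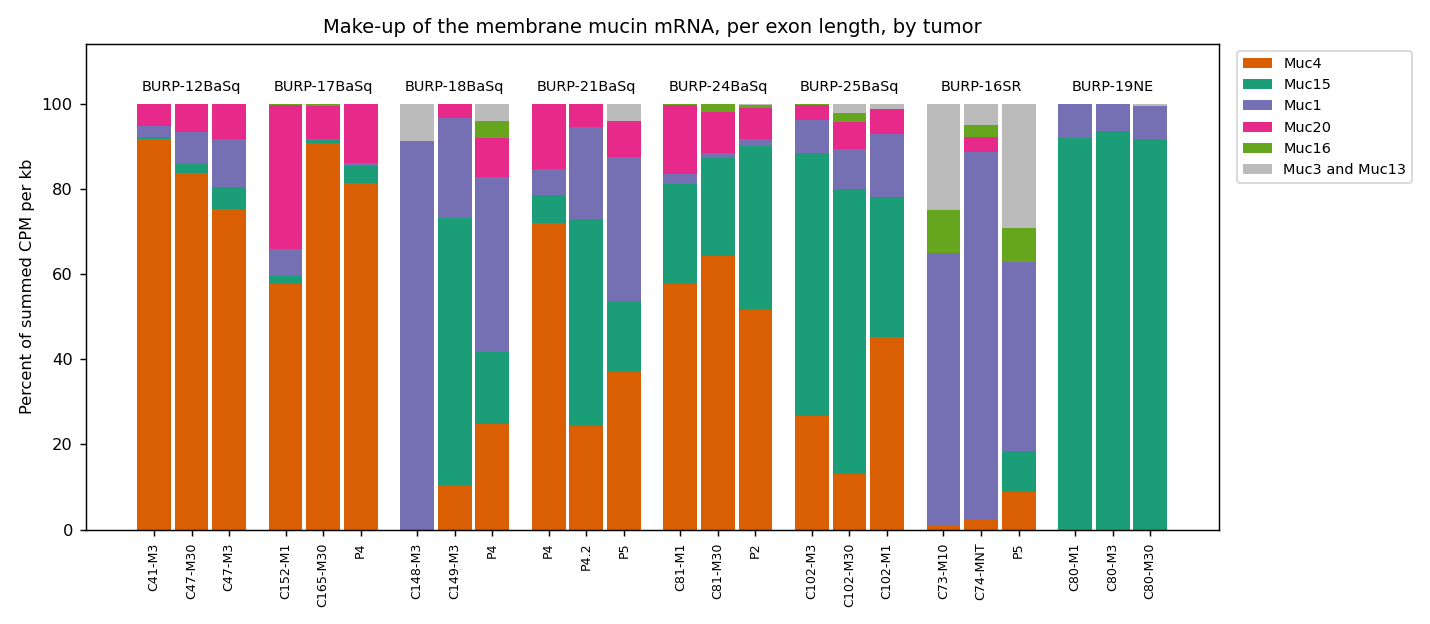
Percent of the summed CPM per kilobase of exon (vertical axis) given by each membrane mucin in each of the 24 tumors, with tumors grouped by line along the horizontal axis and Muc3 and Muc13 drawn together in grey. Muc4 leads in BURP-12BaSq and BURP-17BaSq, Muc15 takes 91.6% or more in BURP-19NE, and Muc1 leads in BURP-16SR, where the sum was 1.04 CPM per kb or less.

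Muc4 codes for a large mucin with EGF-like domains that is known to bind the receptor Erbb2. It measured 80.6, 1530 and 321 CPM in BURP-17BaSq, and 282, 67.7 and 53.8 CPM in BURP-12BaSq. BURP-24BaSq had 87.8, 126 and 112 CPM. These 3 lines held the highest means, and their ranges overlapped. BURP-21BaSq had 227 CPM in P4 but 9.82 and 6.37 CPM in P4.2 and P5. BURP-25BaSq had 28.2, 15.7 and 24.1 CPM. BURP-18BaSq was the lowest Ba/Sq line, with 0, 2.23 and 2.57 CPM from 0, 26 and 48 counts, and all 3 of its tumors lay below the 15 other Ba/Sq tumors. BURP-16SR had 0.0848, 0.310 and 0.210 CPM from 1, 4 and 3 counts, and BURP-19NE had 0.0421, 0.0527 and 0 CPM from 2 counts in all. In the order of the line means, neighbouring lines overlapped except BURP-25BaSq and BURP-18BaSq, and BURP-16SR and BURP-19NE. The gap between BURP-16SR and BURP-19NE lay below the floor of 3 counts. Its nearest tumors, C73-M10 and C80-M3, had 1 count each and differed only through scaled library size.

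Muc20, a small mucin known as a partner of the receptor Met, measured 16.2, 45.3 and 18.7 CPM in BURP-17BaSq, all above the next line, BURP-24BaSq, with 8.36, 6.41 and 5.37 CPM. BURP-21BaSq had 16.5 CPM in P4, the tumor high in Muc4, and 0.735 and 0.496 CPM in P4.2 and P5. The high tumors of Muc20 were thus largely those of Muc4. BURP-12BaSq had 5.25, 1.87 and 2.03 CPM, BURP-25BaSq 1.29, 2.69 and 1.07 CPM, and BURP-18BaSq 0, 0.257 and 0.321 CPM. BURP-16SR had 2 counts, both in C74-MNT, and BURP-19NE had 0 counts in its 3 tumors.

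Over the 18 Ba/Sq tumors, the log2 CPM of Muc4 and Muc20 correlated at r = 0.94 (Spearman's rho 0.93), and at r = 0.86 after the line means were taken out. These are descriptions over tumors that share lines, and each pair of values shares a library. In the 14 tumors with 100 or more counts of Muc4, the Muc20 count was 1.87% to 20.1% of the Muc4 count, with a median of 4.96%, not adjusted for length.

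**Figure D2:**
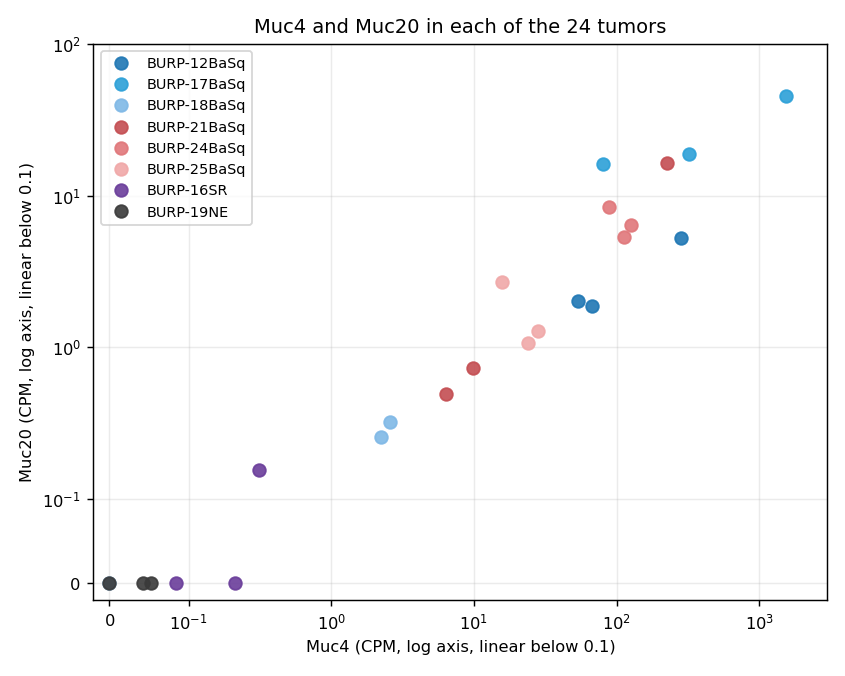
Muc4 (horizontal axis) against Muc20 (vertical axis) in each of the 24 tumors, both in CPM on log axes that are linear below 0.1, with points colored by line. Ba/Sq points extend from BURP-18BaSq, with 2.57 CPM of Muc4 or less, to C165-M30 of BURP-17BaSq with 1530 CPM of Muc4 and 45.3 CPM of Muc20, and BURP-19NE lies at 0 for Muc20.

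In the GRCm38 annotation, Muc4 lies on chromosome 16 from 32735886 to 32782391 on the plus strand and Muc20 from 32777419 to 32797435 on the minus strand. The genes share 4973 bases, 627 of them exonic in both, in 3 blocks of 193, 198 and 236 bases. In the last block all 236 bases are coding in Muc4 and 150 in Muc20, and in the first and second block coding bases belong to Muc4 alone. The study's library protocol put dUTP in the second cDNA strand, but the strand setting used for counting is not given in the sources used here. Reads from the shared exons thus cannot be assigned to 1 gene with certainty. The deposited counts of both genes were not whole numbers in 12 tumors, while those of the other 5 members were whole in every tumor. The part of shared reads in the correlation was not tested. The nearest protein-coding genes beside the pair are Smbd1, which was at 0 in all tumors, and Tnk2, a kinase gene. Tnk2 had 116 ± 26.7 CPM (SD, n = 18) in Ba/Sq, 93.2 ± 21.2 CPM (n = 3) in BURP-16SR and 98.1 ± 8.56 CPM (n = 3) in BURP-19NE and was not called in either comparison with Ba/Sq.

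BURP-19NE was compared with the 18 Ba/Sq tumors to see how the neuroendocrine-like line differs. Muc4, Muc20 and Muc1 were lower in BURP-19NE. A gene was called at a Benjamini-Hochberg adjusted p under 0.05 from edgeR's quasi-likelihood test over all genes tested and an absolute log2 fold change above 1. By this rule 3 of the 5 members tested were called, all lower, where 24.3% of 20995 genes were called, 15% lower and 9.33% higher than in Ba/Sq. The members tested were Muc1, Muc4, Muc15, Muc16 and Muc20. Muc4, Muc16 and Muc20 passed the filter on low counts through their Ba/Sq levels, so the count of 3 says little about the family, and Muc3 and Muc13 passed it in no comparison.

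The Muc4 levels of Ba/Sq ran from 0 through a median of 60.7 to 1530 CPM, and those of BURP-19NE overlapped them through 1 tumor, C148-M3 of BURP-18BaSq, at 0. The log2 fold change was -12.05 (SE 3.16, edgeR adjusted p = 0.00575). From the 2 counts in BURP-19NE the pooled ratio was 4515-fold, with an exact 95% counting interval of 1250 to 37287. Such intervals, here and below, cover counting error only and not the spread between tumors. C165-M30 of BURP-17BaSq alone gave 18209 of the 47503 Muc4 counts pooled over Ba/Sq. Muc20 ran from 0 through 2.36 to 45.3 CPM in Ba/Sq, and BURP-19NE, taken at a floor of 3 counts over the group, was at least 143-fold lower (log2 fold change -10.13, SE 2.80, edgeR adjusted p = 0.00892). Fitted fold changes of genes this close to 0 depend on the prior count of the fit.

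Muc1, a mucin whose short inner tail is known to bind beta-catenin, had 0.379, 0.316 and 0.545 CPM in BURP-19NE. In Ba/Sq it ran from 0.477 through 1.18 to 3.76 CPM, and the groups overlapped at the low end of Ba/Sq. The log2 fold change was -1.63 (SE 0.55, edgeR adjusted p = 0.0266). Without 1 of the 3 BURP-19NE tumors in turn, the adjusted p of Muc1 was 0.0975 (without C80-M1), 0.115 (without C80-M3) and 0.0503 (without C80-M30).

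Muc16 is the very large mucin known in patients as the antigen CA125. It had 1 count in BURP-19NE and ran from 0 through 0.341 to 18.9 CPM in Ba/Sq, a pooled ratio of 109-fold with a counting interval of 19.5 to 4310. It was not called (log2 fold change -6.63, edgeR adjusted p = 0.0701), though DESeq2 gave an adjusted p of 0.00473. Muc15 had a log2 fold change of 0.15 (95% interval -1.93 to 2.24, edgeR adjusted p = 0.928). BURP-19NE is 1 line set against 6. With counts summed per line, the adjusted p was 0.264 for Muc1, 0.146 for Muc4 and 0.163 for Muc20, and with line as a random effect in limma it was 0.307, 0.607 and 0.365, so none of the 3 calls held at the level of lines.

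The epithelial markers Epcam, Cdh1, Krt7, Krt8, Krt18, Krt19, Cldn4, Cldn7, Esrp1 and Esrp2 were low in the same tumors. They summed to between 317 and 431 CPM in BURP-19NE and to between 605 and 4681 CPM in Ba/Sq, and 7 of the 10 were called lower in BURP-19NE, with Epcam and Esrp1 at 0 in all 3 tumors. The part of this difference in the mucin levels was not tested.

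BURP-16SR was compared with Ba/Sq in the same way, to see how the stroma-rich line differs. Muc4, Muc15 and Muc20 were lower in BURP-16SR, and Muc1 and Muc16 were not called. Of 21028 genes tested 19.2% were called, 8.62% lower and 10.5% higher, and 5 members were tested. Muc4, Muc15 and Muc20, with 8, 1 and 2 counts in BURP-16SR, passed the filter through their Ba/Sq levels, so their number says little about the family. Muc4 had a log2 fold change of -9.54 (SE 2.78, edgeR adjusted p = 0.0152) and a pooled level 680-fold lower. Muc20 had 2 counts in BURP-16SR, a pooled ratio of 129-fold with a counting interval of 35.7 to 1068, and a log2 fold change of -6.92 (SE 2.21, edgeR adjusted p = 0.0255).

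Muc15, a smaller membrane mucin, had 0, 0 and 0.0699 CPM in BURP-16SR, from 1 count, and ran from 0 through 4.54 to 25.3 CPM in Ba/Sq. The pooled ratio was 252-fold with a counting interval of 45.2 to 9965, and the log2 fold change was -7.74 (SE 2.15, edgeR adjusted p = 0.0116). Of the 18 Ba/Sq tumors, C148-M3 of BURP-18BaSq was also at 0, so the groups overlapped.

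Muc1 measured 1.10, 2.09 and 0.210 CPM in BURP-16SR, with a log2 fold change of -0.13 (95% interval -1.22 to 0.96, edgeR adjusted p = 0.894). Muc16 measured 1.95, 0.774 and 0.420 CPM, 39 counts in all and each above the Ba/Sq median of 0.341 CPM, with a log2 fold change of -0.99 (95% interval -4.38 to 2.40, edgeR adjusted p = 0.715). The calls rested on all 3 BURP-16SR tumors: none of the 3 members was called without C73-M10 or without C74-MNT, and Muc15 alone was called without P5. With counts summed per line the adjusted p was 0.224 for Muc4, 0.190 for Muc15 and 0.280 for Muc20, and with line as a random effect it was 0.681, 0.574 and 0.565.

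Epithelial markers summed to between 539 and 1177 CPM in BURP-16SR, with none of the 10 at 0 in all tumors and 6 called lower. The sum in Ba/Sq was 605 to 4681 CPM. Fibroblast markers (Col1a1, Col1a2, Col3a1, Dcn, Lum, Pdgfra and Pdgfrb) summed to 7467, 20027 and 582 CPM in C73-M10, C74-MNT and P5 of BURP-16SR, against 207 to 9796 CPM in Ba/Sq. The part of these tissue differences in the mucin levels was not tested.

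BURP-24BaSq and BURP-16SR were the lines that the study treated with cisplatin, and they were compared directly. Muc4, Muc15 and Muc20 were higher in BURP-24BaSq, without overlap, where 29.0% of 18283 genes were called, 13.2% were higher in BURP-24BaSq and 53.5% did not overlap. With 8, 1 and 2 counts in BURP-16SR, these genes passed the filter on low counts through BURP-24BaSq, so their number says little about the family. Muc4 was higher by 8.95 on the log2 scale (SE 0.36, edgeR adjusted p = 3.53e-05), a pooled ratio of 529-fold. Muc15, with 10.8, 13.7 and 25.3 CPM in BURP-24BaSq, was 673-fold higher from pooled counts, with a counting interval of 121 to 26600.3 (log2 fold change 8.94, SE 0.76, edgeR adjusted p = 3.09e-04). Muc20 was 129-fold higher, with a counting interval of 35.5 to 1070.0 (log2 fold change 6.78, SE 0.80, edgeR adjusted p = 0.00105). Muc16 and Muc1 were not called (log2 fold changes 2.0, SE 0.87, and -0.89, SE 0.73), and DESeq2 gave Muc16 an adjusted p of 0.0447. Each line came from 1 donor, BURP-24BaSq from a female and BURP-16SR from a male, so line, subtype and sex cannot be told apart.

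**Figure D3:**
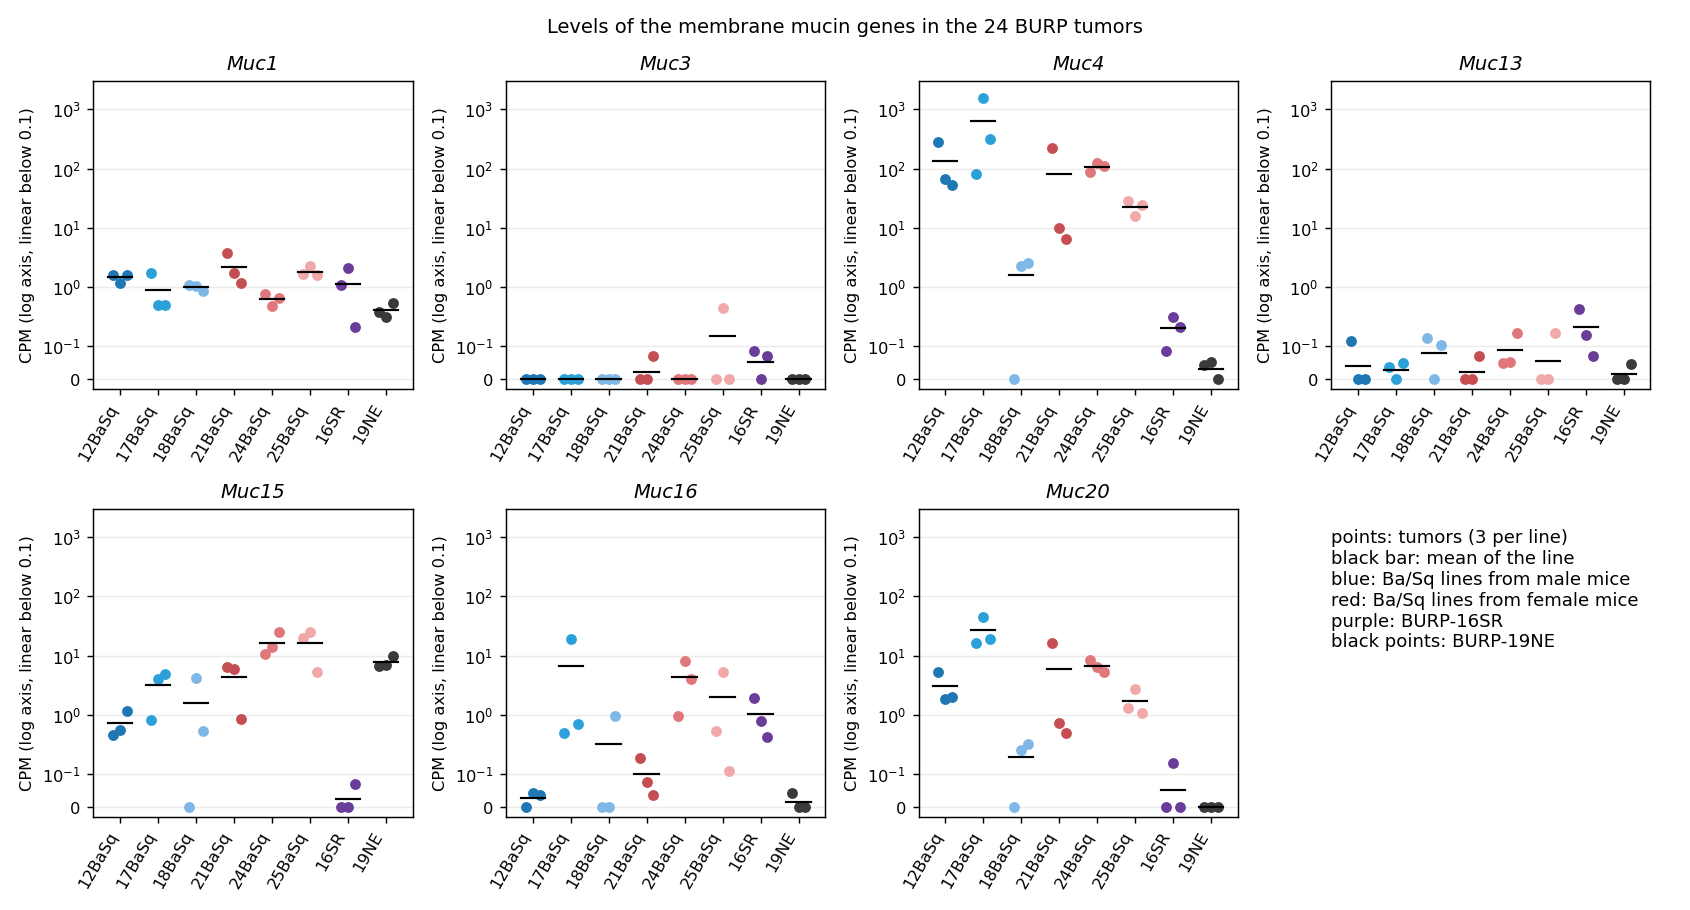
Levels of the 7 membrane mucins by line, 1 panel per gene, with CPM on a vertical log axis that is linear below 0.1. Points are tumors and black bars are means of 3; Muc4 and Muc20 are near 0 in BURP-16SR and BURP-19NE and lowest among Ba/Sq lines in BURP-18BaSq, Muc15 is near 0 in BURP-16SR, and Muc3 and Muc13 stay at or below 0.448 CPM.

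Muc15 separated BURP-16SR from BURP-19NE. BURP-19NE had 6.61, 6.96 and 9.67 CPM, within the Ba/Sq range. In the direct comparison 23.6% of 17556 genes were called and 8.86% were lower in BURP-16SR, while 51.7% did not overlap. Of the 2 members tested, Muc15 was called lower in BURP-16SR (log2 fold change -7.82, SE 0.66, edgeR adjusted p = 9.15e-04), with a pooled ratio of 302-fold and a counting interval of 54.0 to 11968. With 1 count in BURP-16SR, Muc15 passed the filter on low counts through BURP-19NE. Muc1 was not called (log2 fold change 1.53, 95% interval 0.05 to 3.02, edgeR adjusted p = 0.159), but without P5 of BURP-16SR its log2 fold change was 2.01 with an adjusted p of 0.0181. Muc16, with 39 counts against 1, was not tested, and its pooled ratio was 64.7 with a counting interval of 11 to 2622.

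Muc15 lies at 110721340 to 110739527 on the plus strand of chromosome 2, wholly inside Ano3, an anoctamin gene that runs from 110655201 to 110950923 on the minus strand, and 61 bases are exonic in both. Ano3 had 41.3, 49.6 and 57.1 CPM in BURP-19NE, 0.170 CPM or less in BURP-16SR and 0 to 3.37 CPM in Ba/Sq. It was called higher in BURP-19NE than in Ba/Sq (log2 fold change 6.86, SE 0.81, edgeR adjusted p = 1.53e-06). Reads of 1 gene counted for the other cannot be told apart without the strand setting, and the part of Ano3 in the Muc15 level of BURP-19NE was not tested. Within Ba/Sq, P2 of BURP-24BaSq had 25.3 CPM of Muc15 and 0.207 CPM of Ano3, and the 3 tumors of BURP-12BaSq had 1.15 CPM of Muc15 or less and 0.0425 CPM of Ano3 or less. Slc5a12, the next gene on the strand of Muc15 and a monocarboxylate transporter, was likewise higher: BURP-19NE tumors had 1.77 ± 0.392 CPM (SD, n = 3) and Ba/Sq tumors 0.00708 ± 0.0224 CPM (n = 18) (log2 fold change 6.90, SE 0.55, edgeR adjusted p = 3.99e-09).

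**Figure D4:**
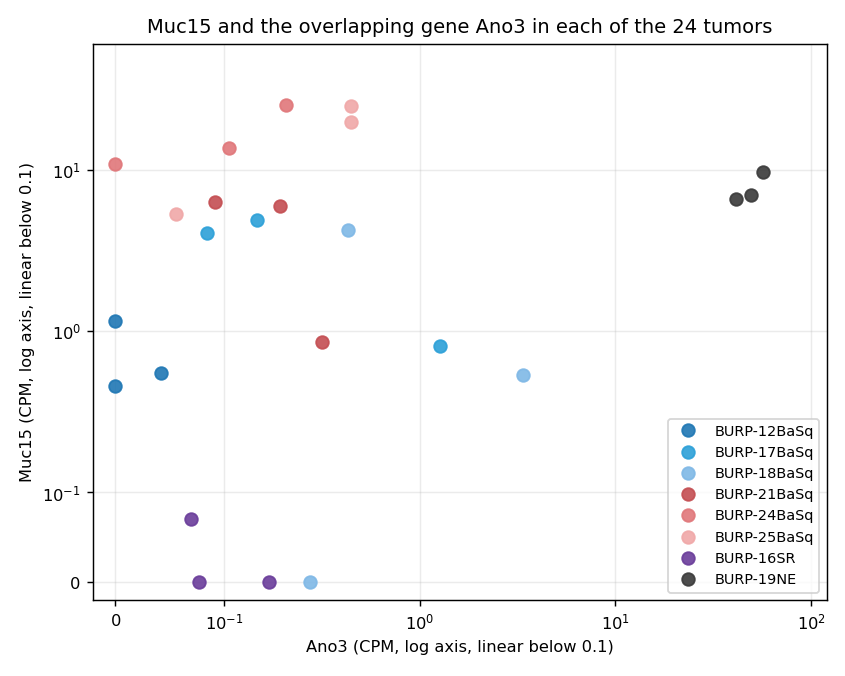
Ano3 (horizontal axis) against Muc15 (vertical axis) in each of the 24 tumors, both in CPM on log axes that are linear below 0.1, with points colored by line. The 3 BURP-19NE tumors lie at 41.3 CPM of Ano3 or more, and the Ba/Sq tumors with the highest Muc15, up to 25.3 CPM, lie at 0.448 CPM of Ano3 or less.

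Each Ba/Sq line was then compared with the 15 tumors of the other 5, to see how far lines of 1 subtype differ. BURP-18BaSq had lower Muc4 and Muc20, with log2 fold changes of -6.85 (SE 1.95, edgeR adjusted p = 0.0230) and -5.28 (SE 1.6, edgeR adjusted p = 0.0309), and in neither gene did the tumors overlap. In this comparison 10.1% of 20523 genes were called, 4.09% were lower and 8.06% did not overlap. BURP-18BaSq had 0, 26 and 48 counts of Muc4 and 0, 3 and 6 counts of Muc20. Both genes thus passed the filter on low counts through the other Ba/Sq lines, so their number says little about the family. BURP-18BaSq is 1 line, and these calls were not checked at the level of lines. Leaving out any 1 BURP-18BaSq tumor ended both calls, with adjusted p of 0.132, 0.0861 and 0.0573 for Muc4 and 0.158, 0.107 and 0.0732 for Muc20 without C148-M3, C149-M3 and P4.

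The other members of BURP-18BaSq were not called. Muc15 had 0, 4.2 and 0.534 CPM (log2 fold change -2.34, SE 1.32, edgeR adjusted p = 0.237), and Muc16 had 0, 0 and 0.962 CPM (-2.77, SE 2.03, edgeR adjusted p = 0.374). Muc1 had 1.10, 1.03 and 0.855 CPM (-0.48, SE 0.53, edgeR adjusted p = 0.581). Epithelial markers of this line summed to between 1523 and 2580.3 CPM, around the Ba/Sq median of 1911 CPM. The neighbour Tnk2 had a log2 fold change of 0.10 (SE 0.20, edgeR adjusted p = 0.772).

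BURP-17BaSq had the highest means of Muc4, Muc16 and Muc20, and no member was called by edgeR within Ba/Sq or by DESeq2, where 1.07% of 20523 genes were called and 0.760% were higher. At an unadjusted p under 0.05, Muc4 (log2 fold change 3.21, SE 1.06, edgeR adjusted p = 0.144) and Muc20 (2.92, SE 0.85, edgeR adjusted p = 0.0916) were the 2 members past it. In 1 edgeR fit over all 24 tumors, which pools the spread of all lines, Muc4 (adjusted p = 5.25e-04), Muc16 (0.00464) and Muc20 (0.00104) were called higher. All 3 tumors lay above the median of the other Ba/Sq tumors in both genes and in Muc16. Muc16 had 0.498, 18.9 and 0.690 CPM (log2 fold change 2.37, SE 1.35, edgeR adjusted p = 0.416), and without C165-M30 its log2 fold change was -1.11. The tumors were uneven: epithelial markers summed to 2431, 4681 and 3950.5 CPM in C152-M1, C165-M30 and P4, and fibroblast markers to 9796, 325 and 3021 CPM, while Muc4 measured 80.6, 1530 and 321 CPM. The part of tissue makeup in these levels was not tested.

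In the other 4 Ba/Sq lines edgeR called no member within Ba/Sq, where it called 4.59% of 20523 genes in BURP-12BaSq, 0.0195% in BURP-21BaSq, 1.65% in BURP-24BaSq and 0.273% in BURP-25BaSq. BURP-12BaSq combined high Muc4 with 0.459, 0.552 and 1.15 CPM of Muc15 and 2 counts of Muc16. Both were past an unadjusted p of 0.05 there (Muc15 log2 fold change -3.52, SE 1.31, and Muc16 -6.32, SE 2.40), and DESeq2 called both lower, with adjusted p of 0.00422 and 0.00281. BURP-24BaSq and BURP-25BaSq had the highest Muc15 means, both 16.6 CPM (SD 7.66 and 10.1, n = 3 each), and the BURP-25BaSq mean was 22.2 ± 3.43 CPM (n = 2) without C102-M1, at 5.29 CPM. High Muc15 thus stood beside high Muc4 in BURP-24BaSq, and low Muc15 beside high Muc4 in BURP-12BaSq. Past an unadjusted p of 0.05 were also Muc1 (0.94, SE 0.43) and Muc16 (-4.83, SE 2.29) in BURP-21BaSq and Muc1 (-1.2, SE 0.49) in BURP-24BaSq, with 0 members in BURP-25BaSq, and DESeq2 called 0 members in these 3 lines. The edgeR fit over all 24 tumors called Muc15 and Muc16 lower in BURP-12BaSq and higher in BURP-24BaSq, and Muc15 higher in BURP-25BaSq.

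**Figure D5:**
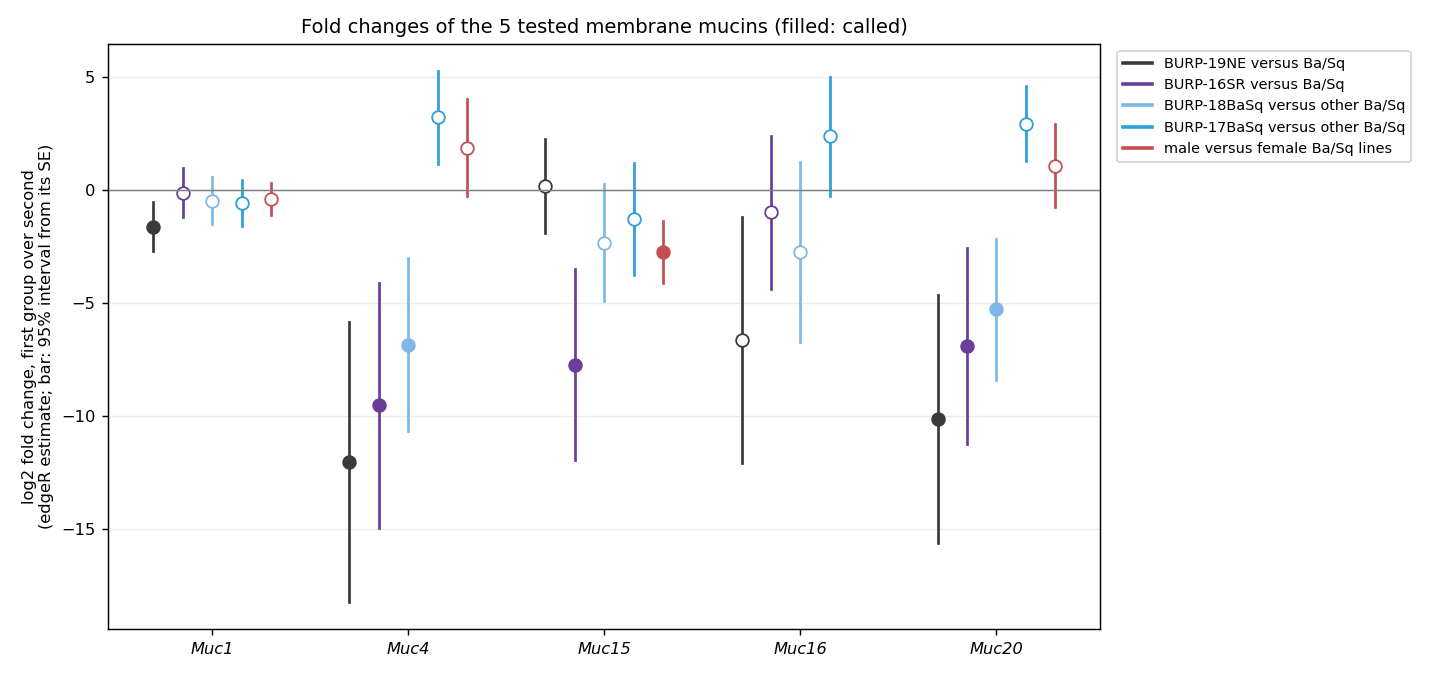
Log2 fold changes, first group over second (vertical axis), of the 5 tested membrane mucins (horizontal axis) in 5 comparisons from edgeR, where bars are 95% intervals from the SE, filled points were called and open points were not. Muc4 and Muc20 were called lower in BURP-19NE, BURP-16SR and BURP-18BaSq, Muc15 in BURP-16SR and in male lines, and Muc1 in BURP-19NE.

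Male and female Ba/Sq lines, 9 tumors from 3 donors each, were compared for differences between the sexes. Muc15 was lower in the male lines, where 2.31% of 17922 genes were called and 1.22% were lower. It ran from 0 through 0.805 to 4.88 CPM in male tumors and from 0.850 through 10.8 to 25.3 CPM in female tumors. The groups overlapped, but 0 of 9 male tumors lay above the female median. The log2 fold change was -2.75 (SE 0.69, edgeR adjusted p = 0.0263).

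The Muc15 call did not hold at the level of lines. With counts summed per line the adjusted p was 0.619, with line as a random effect it was 0.562, and it was 0.0699 without BURP-12BaSq, 0.0538 without BURP-18BaSq, 0.105 without BURP-24BaSq and 0.0696 without BURP-25BaSq, as well as 0.0536 without P2 of BURP-24BaSq alone. Muc4 ran from 0 through 67.7 to 1530 CPM in male and from 6.37 through 28.2 to 227 CPM in female tumors and was not called (log2 fold change 1.87, SE 1.10, edgeR adjusted p = 0.324). Muc20 (1.06, SE 0.94) and Muc1 (-0.41, SE 0.37) were not called either, with edgeR adjusted p of 0.535 and 0.543, and Muc16 was not tested. Hair follicle markers (Krt71, Krt25, Krt27, Tchh and Krt34) summed to between 74.1 and 860 CPM in male and between 31.6 and 138 CPM in female tumors, and their part in the result was not tested.

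Muc1 lies at 89229057 to 89233381 on the plus strand of chromosome 3, between Mtx1 and Trim46. It ran from 0.210 to 3.76 CPM over the 24 tumors with 3 to 45 counts each. In the order of its line means, from 2.22 CPM in BURP-21BaSq to 0.413 CPM in BURP-19NE, neighbours overlapped at every step. Trim46, 795 bases away, was higher in BURP-19NE than in Ba/Sq (log2 fold change 1.81, SE 0.49, edgeR adjusted p = 0.00713) and in BURP-16SR (1.45, SE 0.50, edgeR adjusted p = 0.0385).

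Muc16 lies at 18495455 to 18674530 on the minus strand of chromosome 9, with 26350 exonic bases. It had 0.968, 8.16 and 4.01 CPM in BURP-24BaSq, from 19, 154 and 97 counts. BURP-25BaSq had 0.534, 5.37 and 0.112 CPM, from 12, 12 and 2 counts, the highest in C102-M30 with 62.8% ribosomal counts. BURP-21BaSq had 0.184, 0.0773 and 0.0354 CPM, from 2, 2 and 1 counts, all below the floor of 3 counts. Tumors of BURP-24BaSq thus differed by up to 8.43-fold, while differences within BURP-25BaSq and BURP-21BaSq rest on few counts. Neighbours in the order of line means overlapped at every step. Per kilobase Muc16 was a small part of the family, 1.98% or less of the summed level in Ba/Sq tumors except for 4.13% in P4 of BURP-18BaSq.

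Muc3 and Muc13 are known chiefly from the intestine. Muc3, on the minus strand of chromosome 5 from 137134922 to 137149322, had 5 counts in all 24 tumors together and was at 0 in 20 of them. Muc13, on the plus strand of chromosome 16 from 33794037 to 33819934 and 996601 bases beyond Muc20, had 28 counts and was at 0 in 10 tumors, with 5 counts at most. Muc3a, the related gene next to Muc3, had 0.0339 ± 0.0551 CPM (SD, n = 18) in Ba/Sq. Muc13 measured 0.424, 0.155 and 0.0699 CPM in BURP-16SR, from 8 counts, and 0, 0 and 0.0454 CPM in BURP-19NE, from 1 count. These lines did not overlap, where 51.7% of the genes tested between them did not, and the pooled ratio was 13.3 with an exact counting interval of 1.78 to 589. The nearest tumors, P5 of BURP-16SR and C80-M30 of BURP-19NE, had 1 count each and differed only through scaled library size. No other fold is given for Muc3 or Muc13, whose counts were too few for a test.

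Lines accounted for 78.3% of the variance of log2 CPM over the 18 Ba/Sq tumors in Muc20, 76.0% in Muc4, 67.9% in Muc15, 62.1% in Muc1 and 59.3% in Muc16. With 3 tumors per line, spread between tumors alone also gives lines a share above 0. The share over all genes was not computed, so these values do not set the mucins apart from other genes. After Muc4 with Muc20, the highest correlations over these tumors were Muc15 with Muc16 (r = 0.58) and Muc16 with Muc20 (0.56), and the lowest was Muc1 with Muc16 (-0.49). Muc4 and Muc15 correlated at 0.42 (Spearman's rho 0.22), and at 0.60 after the line means were taken out. Tumor C148-M3 of BURP-18BaSq was at 0 for both genes. With line means taken out, Muc15 with Muc16 stood at 0.32, Muc16 with Muc20 at 0.41 and Muc1 with Muc16 at -0.19.

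Of 20522 genes ranked by the correlation of log2 CPM over the 18 Ba/Sq tumors, those closest to Muc4 were Stard10 (r = 0.94), a lipid transfer protein gene, Muc20 and 4930432E11Rik (0.92). Those closest to Muc20 were Muc4, Ecm1 (0.92), an extracellular matrix gene, and 4930432E11Rik (0.90). Muc15 was closest to Shroom3 (0.94), a regulator of apical cell shape, Gm20219 (0.93) and Cgn (0.91), which codes for cingulin of tight junctions. Muc16 was closest to Zfand6 (0.88), Tbc1d23 (0.88) and Adipor2 (0.86), and Muc1 to Gm17203 (0.87), Nfia (0.82) and Cpeb3 (0.77). All points of these correlations share lines, and Muc1 and Muc16 rest on few counts.

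Other genes of mucins and their sugars were read as lists, each to be set beside all genes tested, where BURP-19NE had 9.33% higher and 15% lower (median log2 fold change -0.14) and BURP-16SR had 10.5% higher and 8.62% lower (median -0.03). A gene near 0 in 1 group passes the filter on low counts through the group where it is high, so a count of calls in a list is a description. List calls were not checked with counts summed per line or with line as a random effect, where no member call against Ba/Sq held. Their p-values measure the spread between tumors that share lines. Secreted mucins lack the membrane anchor. Of 9 on the list 5 were tested in each comparison with Ba/Sq, with 1 higher and 0 lower in BURP-19NE (median log2 fold change -0.06) and 0 called by edgeR in BURP-16SR (median -0.90). The higher gene was Ovgp1, the oviductal glycoprotein, at 8.99 CPM against 2.59 CPM (log2 fold change 1.81, edgeR adjusted p = 1.54e-04). Within Ba/Sq, the gastric mucin gene Muc6 was higher in BURP-18BaSq at 38.2 CPM against 16.7 CPM (1.2, SE 0.30, edgeR adjusted p = 0.0108), and Muc19, a gel-forming mucin gene of salivary glands, was higher in BURP-17BaSq at 6.57 CPM against 0.108 CPM (6.08, SE 0.60, edgeR adjusted p = 4.33e-05).

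Of 5 other membrane glycoproteins, all tested, 1 was higher and 1 lower in BURP-19NE, where 24.3% of all genes were called. In BURP-16SR, where 19.2% were called, 2 were higher and 1 lower. Parm1 fell from 51.3 CPM in Ba/Sq to 0.881 CPM in BURP-19NE (log2 fold change -5.82, SE 1.15, edgeR adjusted p = 5.53e-04) and 6.87 CPM in BURP-16SR (-2.83, SE 0.96, edgeR adjusted p = 0.0344). Podxl, a sialomucin of podocytes and vessels, rose from 15.1 CPM to 41 CPM in BURP-19NE (1.45, edgeR adjusted p = 0.00648) and 65.0 CPM in BURP-16SR (2.17, edgeR adjusted p = 2.02e-04). Mcam, an adhesion molecule of vessels, was higher in BURP-16SR than in Ba/Sq (1.31, SE 0.47, edgeR adjusted p = 0.0451) and than in BURP-19NE (2.21, SE 0.28, edgeR adjusted p = 0.00263). Endothelial markers (Pecam1, Cdh5, Kdr, Tek and Tie1) summed to between 169 and 274 CPM in BURP-16SR. Their sums were 43.9 to 63.9 CPM in BURP-19NE and 23.0 to 294 CPM in Ba/Sq, and their part in these levels was not tested.

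GalNAc transferases attach the first sugar of mucin-type O-glycans. Of 18 on the list 13 were tested. In BURP-19NE, 4 were lower (Galnt18, Galnt12, Galnt6 and Galnt3) and 1 was higher, with a median of -1.12 beside -0.14 over all genes, and in BURP-16SR, 4 were higher and 2 lower, with a median of -0.41 beside -0.03. The share of all genes called was 24.3% and 19.2%. Galnt3 fell from 41 CPM in Ba/Sq to 10.3 CPM in BURP-19NE (log2 fold change -1.95, SE 0.57, edgeR adjusted p = 0.0122) and 6.86 CPM in BURP-16SR (-2.53, SE 0.64, edgeR adjusted p = 0.00635). In BURP-16SR, Galnt1 rose to 298 CPM from 81.9 CPM (1.93, SE 0.30, edgeR adjusted p = 6.76e-05), Galnt11 was also higher (1.41, edgeR adjusted p = 3.78e-05) and Galnt18 was lower (-2.71, edgeR adjusted p = 0.00202). In BURP-17BaSq, Galnt15 (3.47, SE 0.73, edgeR adjusted p = 0.0236) and Galnt3 (1.38, SE 0.33, edgeR adjusted p = 0.0409) were the 2 transferases called, both higher. In that line 1.07% of 20523 genes were called and 0.760% were higher.

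Of 14 enzymes that extend, branch and sialylate O-glycans 13 were tested, with 4 higher and 2 lower in BURP-19NE (median 0.78), beside 9.33% and 15% of all genes, and 2 higher and 2 lower in BURP-16SR (median 0.31), beside 10.5% and 8.62%. B3gnt3, which extends the chains, fell from 72.6 CPM in Ba/Sq to 7.88 CPM in BURP-19NE (log2 fold change -3.18, SE 0.37, edgeR adjusted p = 1.32e-06), and Gcnt4, a branching enzyme, rose from 2.49 to 37.3 CPM (3.91, SE 0.67, edgeR adjusted p = 1.33e-04). The sialyltransferase St6galnac2 was lower in both lines (-2.50 in BURP-19NE and -2.59 in BURP-16SR). St6galnac3 rose from 0.583 CPM to 23.8 CPM in BURP-16SR (5.39, SE 0.41, edgeR adjusted p = 2.29e-09). In BURP-18BaSq, where 10.1% of 20523 genes were called, St3gal1 (1.91, SE 0.36, edgeR adjusted p = 0.00146) and St6galnac4 (1.98, SE 0.44, edgeR adjusted p = 0.00507) were the 2 enzymes called, both higher.

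All 13 genes of sheddases and binding partners were tested, with 3 higher and 4 lower in BURP-19NE (median -0.40), beside 9.33% and 15% of all genes, and 2 higher and 3 lower in BURP-16SR (median -0.39), beside 10.5% and 8.62%. Erbb3, a receptor that pairs with Erbb2, fell from 161 CPM in Ba/Sq to 3.43 CPM in BURP-19NE (log2 fold change -5.53, SE 0.53, edgeR adjusted p = 8.77e-08) and 1.37 CPM in BURP-16SR (-6.79, SE 0.62, edgeR adjusted p = 4.52e-08). Erbb2 itself was 91.9 CPM in Ba/Sq, 40.1 CPM in BURP-19NE (-1.17, edgeR adjusted p = 0.00676) and 18.6 CPM in BURP-16SR (-2.23, edgeR adjusted p = 9.27e-05). Msln, which codes for mesothelin, the known ligand of Muc16, rose from 21.8 CPM to 406 CPM in BURP-19NE (4.24, edgeR adjusted p = 0.00940) and 264 CPM in BURP-16SR (3.67, edgeR adjusted p = 0.0317), where Muc16 itself had 1 and 39 counts. Erbb2 and Msln in BURP-19NE were named after their values were seen, for their known binding to Muc4 and Muc16. In BURP-19NE, Icam1 (-2.87) and Lgals3 (-1.59) were lower and the protease gene Mmp14 was higher (1.36). In BURP-18BaSq, Adam9 (1.15, SE 0.22) and Icam1 (1.39, SE 0.32) were higher.

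Of 18 transcription factors of epithelial differentiation 17 were tested, and 11 were lower and 0 higher in BURP-19NE (median log2 fold change -6.34, beside -0.14 over all genes, 15% of which were lower) and likewise in BURP-16SR (median -6.23, beside -0.03 over all genes, 8.62% of which were lower). Both comparisons share the 18 Ba/Sq tumors, through whose levels factors near 0 in the other lines passed the filter. Ehf, an epithelial ETS factor, fell from 442 CPM in Ba/Sq to 1.61 CPM in BURP-19NE (-8.06, SE 0.92, edgeR adjusted p = 9.20e-07) and 0.162 CPM in BURP-16SR (-11.32, SE 1.14, edgeR adjusted p = 1.79e-07). Grhl2, a grainyhead factor, fell from 97.1 CPM to 0.127 and 0.0699 CPM, and Trp63, a basal cell factor, from 395 CPM to 0.371 and 0.134 CPM. For the protein TP63, the paper's immunohistochemistry reports high expression in BURP-19NE and staining of some cells in BURP-16SR. The reason for this difference between RNA and protein was not tested. In BURP-18BaSq, Ehf was lower at 129 CPM against 504 CPM in the other Ba/Sq lines (-1.96, SE 0.47, edgeR adjusted p = 0.00893), and Cdx2, an intestinal factor, was higher at 16.4 CPM against 0.130 CPM (6.82, SE 0.86, edgeR adjusted p = 3.82e-05), while Muc3 had 0 counts and Muc13 had 3 counts in the line.

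Between the sexes, Galnt4 was higher in male lines at 67.2 CPM against 27.7 CPM (log2 fold change 1.28, SE 0.24, edgeR adjusted p = 0.00848), and Spdef, a factor of mucus-secreting cells, was lower at 0.345 CPM against 1.94 CPM (-2.63, SE 0.69, edgeR adjusted p = 0.0316). No gene of the other 4 lists was called between the sexes, where 2.31% of 17922 genes were called. Each sex had 9 tumors from 3 donors. The calls of Galnt4 and Spdef were not checked at the level of lines, where that of Muc15 did not hold.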

How the data were processed

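Total RNA of 24 tumors was depleted of ribosomal RNA with the HyperPrep RiboErase kit and sequenced in paired ends. Per the study's methods and the submitters' processing notes (CASAVA 1.8.2, STAR 2.6.0a, RSEM 1.3.1), the authors aligned reads to GRCm38 and deposited RSEM expected counts per gene of GENCODE M16, and 12.5% of the deposited values were not whole. From these, counts were rounded, and genes were named from a GENCODE M21 table on GRCm38 that matched 99.6% of the identifiers. Exon lengths and coordinates come from the same table. Line numbers come from the labels, and subtypes and sexes of lines from the study's paper.

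CPM used TMM factors over 24 tumors (21383 genes that passed filterByExpr), and log2 CPM a prior count of 2. Each of 11 comparisons was fitted to its own tumors with edgeR 4.0.16 in R 4.3.3 (TMM, filterByExpr, glmQLFit, glmQLFTest). A call required a Benjamini-Hochberg adjusted p under 0.05 over all genes tested and an absolute log2 fold change above 1. Counting intervals are exact at 95%, and with the floor of 3 counts they cover counting error only.

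Alternatives were DESeq2 1.42.0 size factors and test, no filter, a filter at CPM above 1 in 3 tumors, 1 fit over all 24 tumors, no ribosomal genes, the style of the sample labels as a covariate, counts summed per line, a random effect of line (limma 3.58.1), no C102-M1, and 96 fits that each left out 1 tumor or line. The scripts were tested on simulated data. The members and lists were chosen with earlier results of these data known. An epithelial marker of the planned list is not reported here and entered no sum. Named genes were the members, their neighbours, up to 4 genes of each list with the smallest p, and the 3 genes most correlated with each member that had enough counts.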

Additional observations from a re-analysis of the deposited data

Results flagged for a closer look

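In groups of 9 tumors, 4 values stood further from the rest of their group than Dixon's 95% critical value allows. By chance about 1 in 20 groups passes this test if values are independent and normally distributed. These were CPM of tumors that share lines, so that rate need not hold. In tumor C165-M30 of BURP-17BaSq, Muc4 was 1530 CPM where the next male Ba/Sq tumor had 321 CPM. Muc16 was 18.9 CPM in the same tumor where the next had 0.962 CPM, and Muc20 was 45.3 CPM where the next had 18.7 CPM. In P4 of BURP-21BaSq, Muc20 was 16.5 CPM where the next female Ba/Sq tumor had 8.36 CPM.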

How the results depend on the processing

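Of 176 alternative counts of called members, 28 lay more than 1.5 times from the reported count, and of 807 alternative log2 fold changes, 732 kept their direction and side of the threshold. With counts summed per line and with line as a random effect, 0 members were called in BURP-19NE against Ba/Sq, in BURP-16SR against Ba/Sq and between male and female lines. In BURP-16SR against BURP-19NE, 2 members were called without the filter and in 1 fit over all 24 tumors. That fit called 2 members in BURP-12BaSq, 3 in BURP-17BaSq, 2 in BURP-24BaSq and 1 in BURP-25BaSq, and the DESeq2 test called 2 in BURP-12BaSq. The cause of these changes was not tested.

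None of the log2 fold changes that reversed had been called. In the fit over all 24 tumors, reversed values were 0.80 for Muc16 in BURP-16SR against Ba/Sq, 1.52 for Muc4 in BURP-12BaSq, 0.63, 0.11 and 1.02 for Muc4, Muc15 and Muc20 in BURP-21BaSq, 1.15 and 1.28 for Muc4 and Muc20 in BURP-24BaSq, 1.44 for Muc16 in BURP-25BaSq, and -0.14 and -0.54 for Muc4 and Muc20 in male against female lines. With line as a random effect it was 1.59 for Muc16 in BURP-16SR against Ba/Sq. The DESeq2 test gave 0.85 for Muc4 in BURP-12BaSq, 0.46 for Muc4 in BURP-24BaSq and 0.86 for Muc16 in BURP-25BaSq.

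With 1 tumor or line left out, the number of called members ran from 2 to 3 in BURP-19NE against Ba/Sq, from 0 to 3 in BURP-16SR against Ba/Sq and from 1 to 3 in BURP-16SR against BURP-19NE. It was 3 in all fits of BURP-24BaSq against BURP-16SR, 0 in the 3 fits of each Ba/Sq line that left out a tumor of that line, BURP-18BaSq included, and 0 or 1 in male against female lines. Log2 fold changes that changed sign in such fits ran from -0.073 to 0.36 for Muc15 in BURP-19NE, from -0.93 to 0.27 for Muc1 in BURP-16SR, from -1.50 to 0.026 for Muc4 in BURP-12BaSq, from -1.11 to 2.92 for Muc16 in BURP-17BaSq, from -3.63 to 0.15 for Muc20 in BURP-21BaSq, from -2.81 to 0.22 for Muc16 in BURP-25BaSq, and from -0.057 to 2.40 for Muc4 and from -1.51 to 1.59 for Muc20 in male against female lines. Where a left-out tumor reduced a group, fewer samples entered the fit. In BURP-18BaSq, 2 members stayed called without C102-M1 and without C102-M30, the latter chosen after seeing the data. No paired analysis was possible because the labels give no number that pairs tumors of different lines. Depth limits Muc3, Muc13 and the lowest values of Muc1, Muc16 and Muc20, which rest on a few counts.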
